A study of Toxocara canis with 2 samples.

Results

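Among the transcripts of the dog roundworm Toxocara canis that differed between an adult female and an adult male, 41 assembled sequences had their best protein match in a social amoeba of the genus Dictyostelium. They were chosen by 1 criterion: a row of the authors' deposited table of female against male whose first hit in Nr, the non-redundant protein collection, ended with an organism name starting with Dictyostelium. The 41 unigenes, as assembled transcripts are called here, stand among 21280 rows of that table, which are 30.3% of the 70267 unigenes seen in either library. Unigenes outside the table carry no names in the files, so a Dictyostelium match among them would not be seen. Dictyostelium discoideum supplied the best hit for 28 of them (27 under its strain AX4), Dictyostelium purpureum for 10 and Dictyostelium fasciculatum for 3. Each sex is represented by 1 library from the whole body of 1 adult worm, both labelled with the strain name Rongchang, the female with 19.8 M and the male with 18.4 M fragments. No treatment is recorded for either worm. With a single worm per sex no difference could be tested, and each one below is between these libraries.

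Dictyostelium is a soil amoeba whose proteins are known for long runs of single amino acids, above all asparagine and glutamine. Such runs, called low-complexity sequence, align with runs in unrelated proteins, so a best hit can carry a name without shared ancestry or function. Nematodes do not descend from amoebae, and the names below are quoted only as database matches. The unigene sequences were not analysed here, so repetition itself was not measured, and no sequence is shown.

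These transcripts were far lower in the female than in the male worm. Together they held 3067 of the female fragments, or 0.0155% (95% Clopper-Pearson interval 0.0150 to 0.0161%), against 775014 of the male fragments, or 4.22% (4.21 to 4.23%). The summed share was 272-fold lower in the female library (95% interval 263 to 282). FPKM, the fragment count scaled to unigene length and library total, summed to 116 over the 41 unigenes in the female library and to 126185 in the male library. All intervals cover counting error only, and in whole worms fewer cells of a type and less RNA per cell cannot be told apart.

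Of the 41 unigenes, 3 were higher and 38 lower in the female library, and 24 of the 38 had 0 female fragments. Of these 24, 14 had at least 5 FPKM in the male library, a pattern seen in 2.16% of all unigenes. A size rule stood in for a test: the larger FPKM was at least 5, and the sexes differed at least 4-fold on the scale log2((female FPKM + 1)/(male FPKM + 1)). By this rule 0 members were higher and 25 lower in the female library. Of all unigenes the rule marked 2.38% as higher and 4.5% as lower in the female library, and it marked 14.8% of the rows of the authors' deposited table as lower. The members come from that table, so a difference between the libraries was a condition of entry and nothing is read from their count against these shares. The table's own entry limit lies close to the least different member: its log2 ratio of female over male was 1.01 for Unigene16631 and -1.18 for Unigene16623 in the authors' deposited table. Over all 41 members the median log2 ratio, with a pseudocount of 1 FPKM, was -4.78, beside -0.78 over the rows of the authors' deposited table and 0.08 over all unigenes. It was -6.96 over the 33 members that averaged 1 FPKM or more. Only 7 members reached 1 FPKM in the female library, so most of the 33 passed through their male value, and the table was itself selected on this ratio; the medians are a description only.

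**Figure D1:**
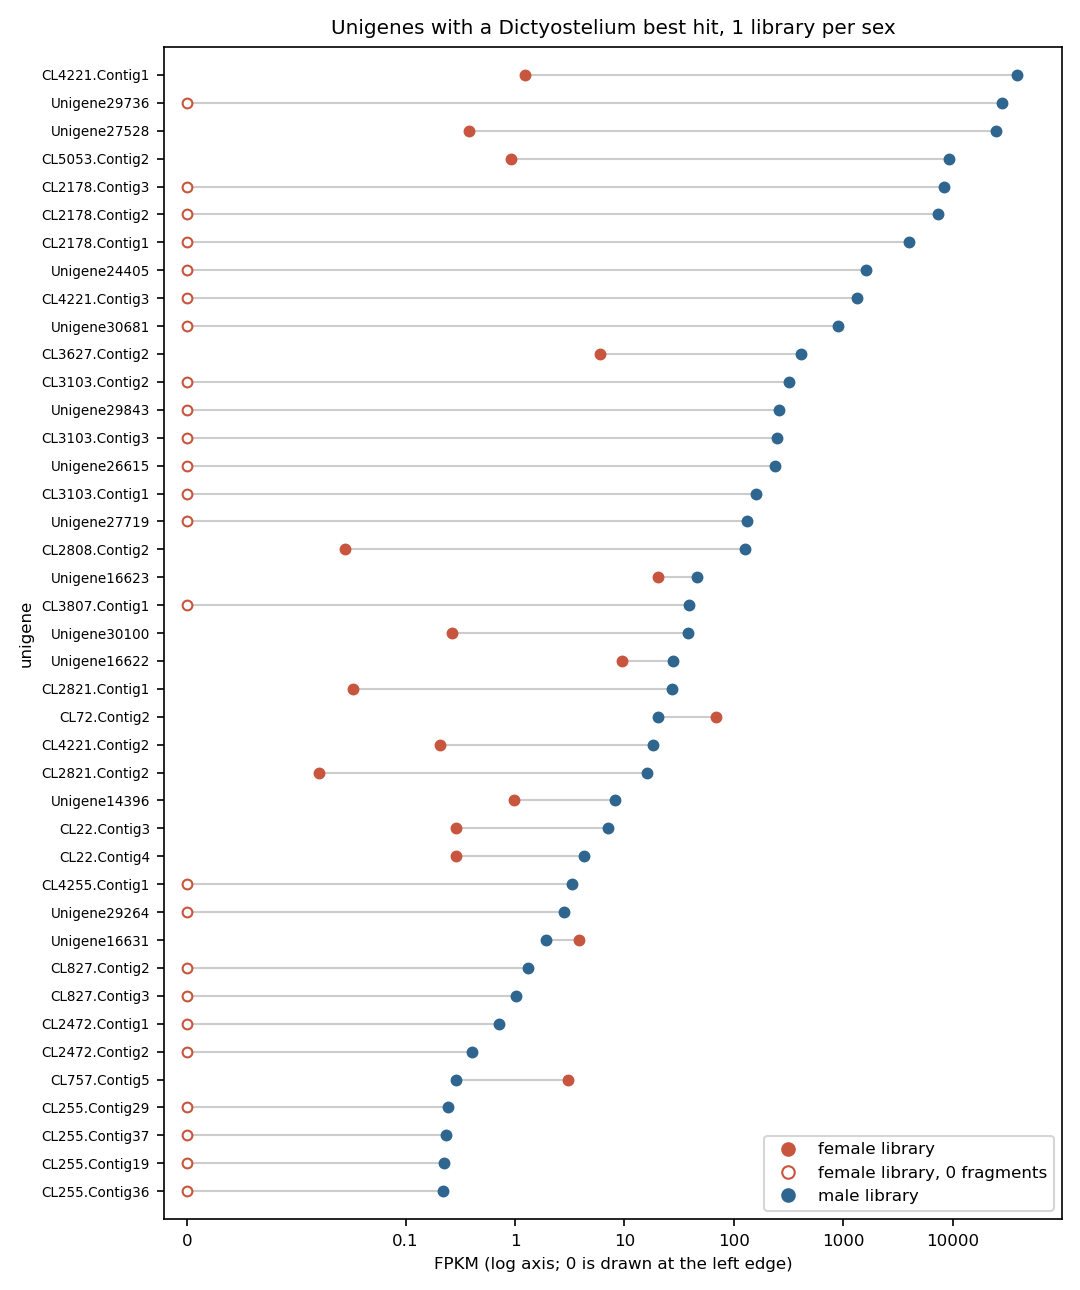
FPKM of each of the 41 unigenes in the female (red) and male (blue) library, 1 point per library on a log axis, ordered by male FPKM; open red points had 0 female fragments. The 38 unigenes lower in the female library have the red point on the left, and CL72.Contig2, Unigene16631 and CL757.Contig5 have it on the right.

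The male library's single highest FPKM belonged to one of these sequences. CL4221.Contig1, a unigene of 206 bases, had 5 fragments and 1.23 FPKM in the female library, against 145357 fragments and 38427 FPKM in the male library. Its share was 31325-fold lower in the female library (13423 to 96476). For scale, the most abundant sperm cytoskeleton transcript, major sperm protein isoform beta (CL2081.Contig1), stood at 7.50 FPKM in the female and 32102 FPKM in the male library.

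Similarly short and abundant were Unigene29736 and Unigene27528, both with a Swiss-Prot match to the Dictyostelium Dr1-associated corepressor (drap1), a protein that represses transcription. Unigene29736, of 202 bases, had 0 fragments in the female and 103844 fragments, or 27996 FPKM, in the male library. It was at least 37298-fold lower in the female library, with the 0 set to a floor of 3 fragments. Unigene27528, of 265 bases, had 2 female fragments (0.381 FPKM) against 121139 male fragments (24895 FPKM), a share 65265-fold lower in the female library (18067 to 538917). The female values of both thus rest on 2 fragments in all.

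CL5053.Contig2 was the longest of the abundant members and held the most fragments of any of them. At 1107 bases, it had 20 female fragments (0.913 FPKM) against 187902 male fragments (9244 FPKM), which alone was 1.02% of the male library. Its share was 10123-fold lower in the female library (6555 to 16574). Its best hits were an unnamed Dictyostelium protein in Nr and, in Swiss-Prot, the bromodomain-containing protein DDB_G0280777; a bromodomain is a module that binds acetylated histones.

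The 3 members of cluster CL2178 had 0 female fragments. CL2178.Contig3 (455 bases) had 69561 fragments and 8326 FPKM in the male library, CL2178.Contig2 (434 bases) 58057 fragments and 7285 FPKM, and CL2178.Contig1 (256 bases) 18744 fragments and 3987 FPKM. They were at least 24984-fold, 20852-fold and 6732-fold lower in the female library. The first Nr hit of Contig2 and Contig3 was a protein with an RNA-binding region, and that of Contig1 an argonaute-like protein, of the family that binds small guide RNAs. The Swiss-Prot match of Contig1 was trfA, a general corepressor of transcription.

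Unigene24405 (329 bases) had 0 female fragments against 1618 FPKM in the male library, at least 3512-fold lower in the female library. CL4221.Contig3 (515 bases), with 0 female fragments against 1342 FPKM, was at least 4559-fold lower in the female library. In all, 9 members had 1342 FPKM or more in the male library, and 6 of the 10 and 7 of the 25 highest FPKM values of that library were members. In the female library 7 members reached 1 FPKM. The 6 members with the most male fragments carried 88.5% of the male fragments of all 41.

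The next 9 members had 127 to 901 FPKM in the male library, and 7 of them had 0 fragments in the female. Unigene30681 (825 bases) had 0 female fragments against 901 FPKM in the male library, and the 3 contigs of CL3103 had 0 against 319.5 FPKM (Contig2), 251 FPKM (Contig3) and 159 FPKM (Contig1). These 4 unigenes shared a Swiss-Prot match to roco9, a Dictyostelium protein kinase, and no other row of the authors' deposited table had it. Unigene26615, whose Nr name is ComB and whose Swiss-Prot match is the RNA helicase ddx42, had 0 female fragments against 237 FPKM in the male library. CL2808.Contig2 had 1 female fragment against 4216 male fragments (127 FPKM), a share 4543-fold lower in the female library (815 to 179473). Its Swiss-Prot match was bovine cylicin-2, a basic protein of the mammalian sperm head.

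CL3627.Contig2 had the most female fragments of these 9. It had 90 fragments and 6.02 FPKM in the female library, against 5755 fragments and 415 FPKM in the male library, a share 68.9-fold lower in the female library (56.0 to 85.8). Its Swiss-Prot match, at 99.8 bits, was keratin 9 of the dog, the host of this worm, and KEGG also named a type I keratin. Its Nr hit, at 65.1 bits, was an unnamed Dictyostelium fasciculatum protein. The 3 rows of the authors' deposited table with a best Nr hit in Canis summed to 42.6 FPKM in the female and 290 FPKM in the male library; the part of host sequence in CL3627.Contig2 was not tested. Best hits in Trypanosoma, searched as a sign of foreign sequence, were 119 rows that summed to 441 FPKM in the female and 162 FPKM in the male library. By share of fragments the order was the opposite, with 0.0191% of the female and 0.0460% of the male fragments. Of the 119 rows, 109 were higher and 10 lower in the female library. The bacterial genera searched gave 0 rows.

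Unigene29843, matched in Swiss-Prot to the glutamic acid-rich protein of Plasmodium falciparum, had 0 female fragments against 3650 male fragments (259 FPKM), at least 1311-fold lower in the female library.

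Members under 100 FPKM in the male library varied widely in size of difference. CL4221.Contig2 had 1 female fragment (0.206 FPKM) against 82 male fragments (18.2 FPKM), far below the other 2 members of its cluster in the male library, and was 88.4-fold lower in the female (15.4 to 3532). Unigene30100, with a Swiss-Prot match to a linker histone of Tetrahymena, stood at 0.268 FPKM in the female and 38.1 FPKM in the male library, 142-fold lower in the female (77.2 to 298). Unigene14396 stood at 0.985 FPKM in the female and 8.15 FPKM in the male library, 8.27-fold lower in the female (5.77 to 12.2). CL22.Contig3 and CL22.Contig4, the 2 members with no Swiss-Prot hit, had 2 female fragments each against 45 and 27 male fragments.

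Unigene16623 and Unigene16622 had the smallest folds among the members lower in the female library. They are 2566 and 2075 bases long and matched the same unnamed Dictyostelium purpureum protein. Unigene16623 stood at 20.3 FPKM in the female and 46.1 FPKM in the male library, a share 2.27-fold lower in the female (2.11 to 2.45). Unigene16622 stood at 9.43 FPKM in the female and 28.0 FPKM in the male library, a share 2.97-fold lower in the female (2.64 to 3.35).

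Of the 3 members higher in the female library, CL72.Contig2, described only as an expressed protein, was the most abundant. It had 1226 fragments and 69.0 FPKM in the female library, against 334 fragments and 20.3 FPKM in the male library, a 3.41-fold higher share in the female (3.02 to 3.86). It and Unigene16623 and Unigene16622 carried 86.2% of the female fragments of all 41 members. Unigene16631, at 3.85 FPKM in the female and 1.91 FPKM in the male library, was 2.02-fold higher in the female (1.54 to 2.66). Its Swiss-Prot and KEGG matches named Mediator subunit 12, part of the complex that links transcription factors to RNA polymerase, from Caenorhabditis elegans. CL757.Contig5 had 80 female fragments (3.08 FPKM) against 7 male fragments (0.291 FPKM), 10.6-fold higher in the female (4.92 to 27.2).

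At the low end, 11 members were lower in the female library but under 5 FPKM in the male library. Their male counts ran from 17 to 136 fragments and their female counts reached 2 at most, with 10 of the 11 at 0. The 4 members of CL255, 4274 to 4983 bases long, had 0 female fragments against 19 to 20 male fragments each, or 0.219 to 0.242 FPKM. CL4255.Contig1 had 0 female fragments against 136 male fragments (3.34 FPKM), at least 48.8-fold lower in the female library.

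In the male library the shorter members tended to have the higher levels. The 41 members had a median length of 1019 bases (quartiles 434 and 2287; range 202 to 4983). All rows of the authors' deposited table had a median of 727 bases and all unigenes one of 543 bases. Of the 21280 rows of that table, 8567 had an Nr hit. The 7339 rows whose first Nr hit was a nematode had a longer median, 1653 bases. The 251 rows with a Dictyostelium match in Swiss-Prot but not as first Nr hit had one of 1521 bases. The 16 members under 600 bases had 0 to 1.23 FPKM in the female library, against 2.80 to 38427 FPKM with a median of 831 in the male library. The 12 members of 600 to 2000 bases had 0 to 69.0 FPKM in the female library, against 0.291 to 9244 FPKM with a median of 82.8 in the male library. The 13 members over 2000 bases had 0 to 20.3 FPKM in the female library, against 0.219 to 46.1 FPKM with a median of 1.31 in the male library.

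The order was also seen in fragments not divided by length. The 16 shortest members held 12 female fragments, against 546570 male fragments, which is 70.5% of the male fragments of all members, while the 13 longest held 1594 female and 6140 male fragments. Over the 41 members length had a Spearman correlation of -0.52 with male fragments and of -0.70 with male FPKM, given as a description because members share clusters, sequence and a library. Deposited FPKM divide by the full unigene length, which weighs heavily on unigenes of about 200 bases, and how fragments that fit several contigs were assigned is not known from the sources at hand. Near-identical contigs can split or share fragments, so the level of a single contig is uncertain.

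**Figure D2:**
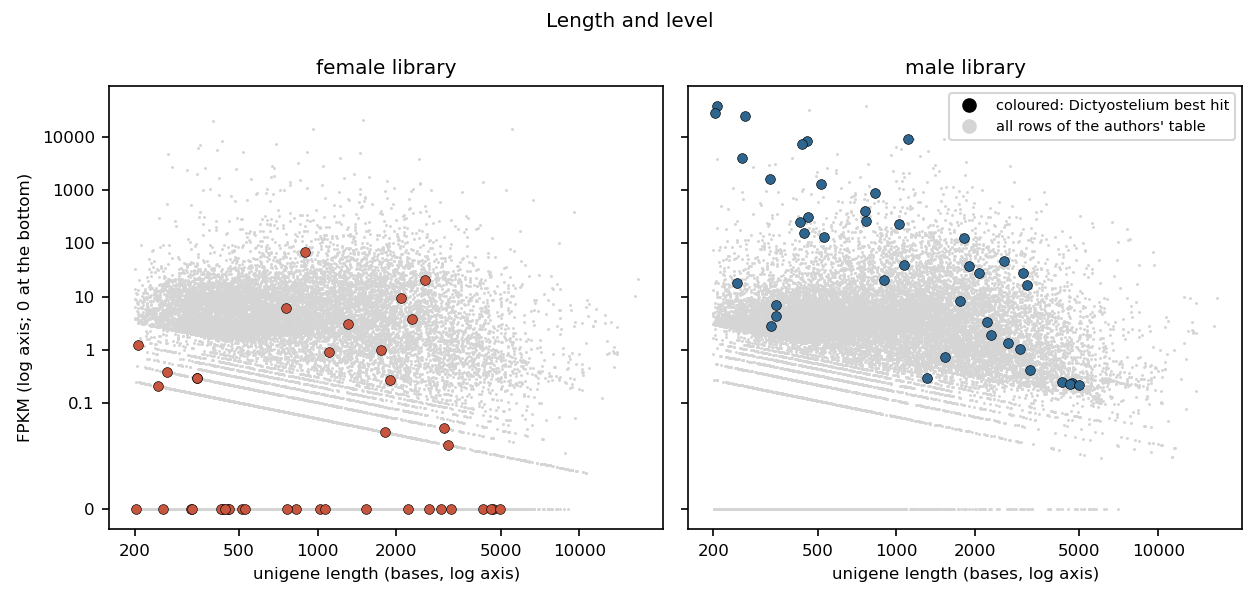
Unigene length in bases against FPKM, both on log axes, in the female (left) and male (right) library; coloured points are the 41 unigenes with a Dictyostelium best hit and grey points all 21280 rows of the authors' deposited table. In the male library 4 members of 202 to 1107 bases lie at 9244 to 38427 FPKM, and in the female library 24 of the 41 lie at 0.

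The prefix CL joins contigs that the assembly put in the same cluster. In such clusters lay 28 of the 41 members (68.3%), spread over 15 of them, against 55.9% of the nematode rows and 30.4% of all rows of the authors' deposited table. These clusters held 97 contigs, of which 69 were not members: 61 were rows of the authors' deposited table with another first hit or none, and 8 lay outside that table. The member rule did not use the levels of these 69 other contigs. But 61 of them also met the table's condition of a difference between the sexes, and all share a cluster with a member. Their counts are therefore a description only. Of the 69 contigs 2 were higher and 67 lower in the female library, with 57 at 0 female fragments. Over all unigenes 45.6% were lower and 16.8% at 0 in the female. Over the rows of the authors' deposited table the shares were 55.7% and 30.7%. The clusters CL255 and CL2472 held 44 of the 57, all at 2.57 FPKM or less in the male library. In the other clusters 2 contigs were higher and 23 lower in the female library, with 13 of the 25 at 0. By the size rule 1 of all 69 contigs was higher and 12 were lower in the female library. The rule marked 2.38% of all unigenes as higher and 4.5% as lower in the female library. Of the rows of the authors' deposited table it marked 14.8% as lower. Together the 69 contigs held 1287 female fragments (0.0065%), against 573501 male fragments (3.12%).

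Most of that male share came from CL2178.Contig4, of 767 bases. It had 9 fragments and 0.593 FPKM in the female library, against 540621 fragments and 38385 FPKM in the male library, 64725-fold lower in the female (34096 to 141550). This contig alone was 2.94% of the male library and had the second highest FPKM there. Its first Nr hit was a Drosophila willistoni protein, GK19734, while its Swiss-Prot match was the same DDB_G0280777 as for 5 members. Members and other contigs of their clusters together made up 7.34% of the male fragments and were 334-fold lower in the female library (324 to 344).

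Other clusters likewise held abundant contigs that the name rule missed. CL2821.Contig4, of 282 bases and with no Nr hit, had 2 female fragments against 14395 male fragments (2780 FPKM), while the members of that cluster, CL2821.Contig1 and CL2821.Contig2, are 3037 and 3139 bases long and stood at 0.0333 and 0.0161 FPKM in the female and at 27.4 and 16.2 FPKM in the male library. In CL255 all 38 contigs, 4 of them members, had 0 female fragments. CL72 was higher in the female library in both contigs: CL72.Contig1 stood at 32.9 FPKM in the female and 4.95 FPKM in the male library. CL757 went both ways: CL757.Contig3, of 4835 bases, matched the dehydrogenase DHS-11 of Caenorhabditis remanei and stood at 5.20 FPKM in the female against 81.7 FPKM in the male library, opposite to CL757.Contig5.

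**Figure D3:**
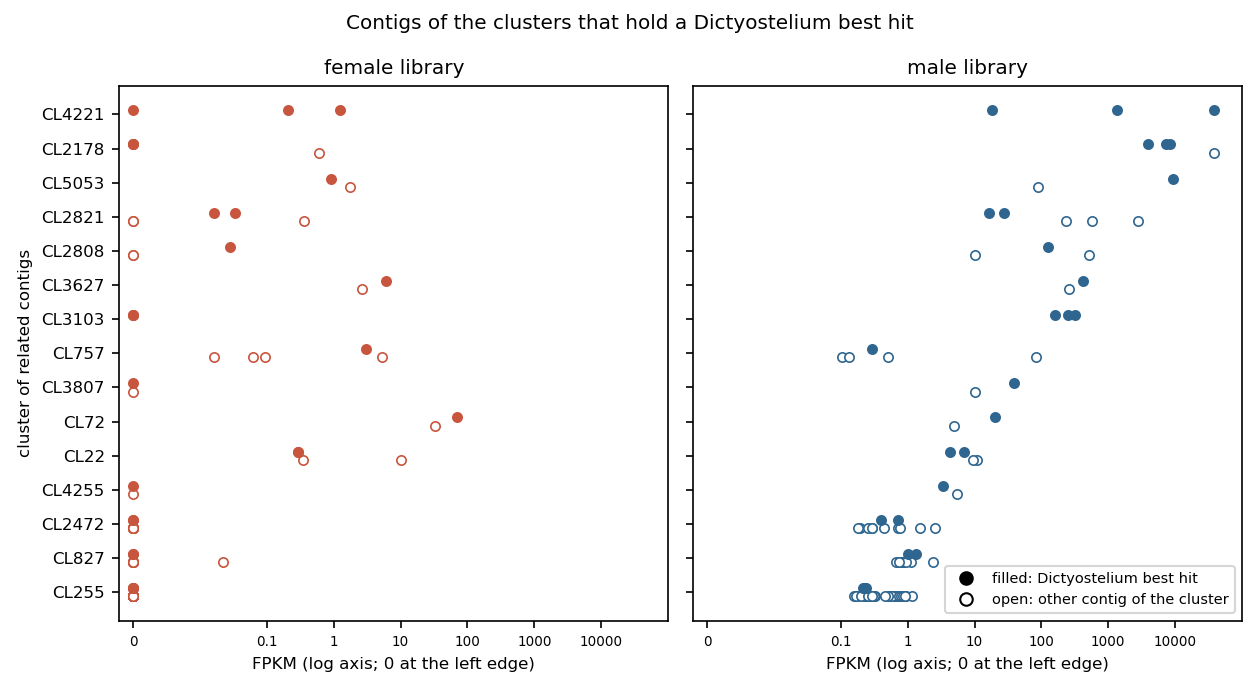
FPKM (log axis) of every contig in the 15 clusters that hold a Dictyostelium best hit, in the female (left) and male (right) library; filled points are members and open points the 69 other contigs. In CL2178 the open point at 38385 male FPKM is CL2178.Contig4, and CL72 is higher in the female library in both contigs.

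The matches behind the names had low scores for most members. The Nr score had a median of 58.5 bits (range 52.4 to 147.1), against 214 bits over 7339 rows whose first hit was a nematode and 59.3 bits over 13 rows with a first hit in Plasmodium, Tetrahymena or Entamoeba, protists with AT-rich genomes. Scores under 75 bits were found for 34 of 41 members (82.9%), against 10 of 13 of those protist rows (76.9%) and 14.6% of the nematode rows. The largest E-value of a member, the number of equally good matches expected in a random search, was 8e-06, next to 9e-06 as the largest in the whole table. Only 3 members scored above 100 bits: CL757.Contig5 with 147.1, Unigene29264 with 134.8 and CL4255.Contig1 with 110.5 bits.

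Swiss-Prot, the curated protein collection, often gave a higher score than Nr for the same unigene. Of 39 members with both hits, 22 (56.4%) scored more than 10 bits higher in Swiss-Prot, against 2 of 12 such protist rows (16.7%) and 724 of 5566 nematode rows (13.0%). CL5053.Contig2 scored 57.8 bits in Nr and 129 bits in Swiss-Prot, and CL4221.Contig3 52.8 and 132 bits. Nr is built to include the proteins of Swiss-Prot, and the settings of each search, such as the masking of low-complexity sequence, are not known from the sources at hand.

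**Figure D4:**
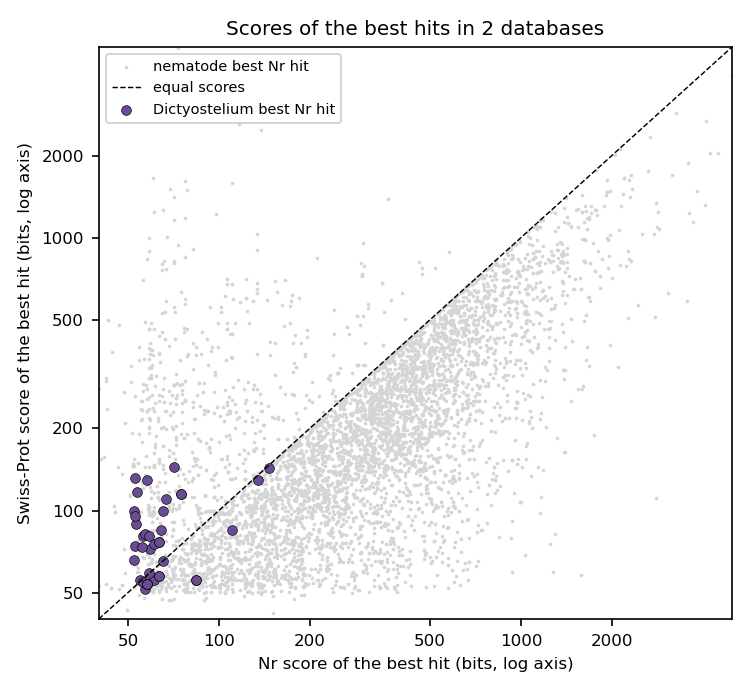
Score of the best Nr hit against the score of the best Swiss-Prot hit, in bits on log axes; purple points are the 39 members with both hits, grey points the nematode rows, and the dashed line marks equal scores. Most members sit between 52.4 and 84.3 bits in Nr, and 22 of them lie more than 10 bits above equality in Swiss-Prot.

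The databases often gave one member different names or none. In Nr 30 of the 41 descriptions held no name, as in hypothetical protein DDB_G0278995. Of the 39 Swiss-Prot hits 28 were to Dictyostelium and 11 to other organisms: 4 to Caenorhabditis elegans, 3 to Tetrahymena thermophila, and 1 each to cattle, dog, chicken and Plasmodium falciparum. The names could be compared only for the 11 members named in Nr. All 11 had a Swiss-Prot hit, and 2 of them shared a descriptive word with it. Of the 8 that also had an entry in COG, the collection of orthologous groups, 4 shared a word with it. Between Swiss-Prot and KEGG 4 of 30 members shared a word, and between Swiss-Prot and COG 1 of 30. Some of these Swiss-Prot descriptions held no name, such as uncharacterized protein DDB_G0284459 for 4 members, and could share none. Different words can also stand for the same kind of protein, as initiation factor 4A and helicase do for CL757.Contig5. For Unigene24405 and CL4221.Contig2 the words shared by Nr and COG were only RNA and binding.

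Single clusters show the disagreement. The 3 contigs of CL4221 had 3 different Nr names, and Swiss-Prot matches to the kinase tsuA, the Ras-related protein RabX and the bromodomain protein DDB_G0280777, yet a single COG. The 3 members of CL2178 had 2 Nr names, 2 Swiss-Prot names and 2 COGs: Contig2 and Contig3 were filed under a TPR repeat protein of yeast and Contig1 under FtsK, a bacterial ATPase that moves DNA. Contigs of different clusters shared a name in turn. The 5 members that matched DDB_G0280777 (CL2178.Contig2, CL2178.Contig3, CL4221.Contig3, CL5053.Contig2 and Unigene24405) came from 3 clusters and 1 unclustered unigene, and had 20 female against 337991 male fragments in all.

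The most frequent COG was COG5099, the Puf family of RNA-binding proteins that repress translation. Of the 30 members with a COG, 12 were filed there, all through the same yeast protein, YPR042c, and 8 under RNA-binding proteins with an RRM domain through SPAC140.02. The 12 had 9 different Nr entries and 6 different Swiss-Prot entries, and none of those 6 Swiss-Prot descriptions named a Puf protein. All 12 were lower in the female library, 6 with 0 fragments, and they held 1445 female against 589981 male fragments, or 76.1% of the male fragments of all members. The authors' deposited table held COG5099 in 15 rows, 12 of them members. Of the 3 that were not, 2 were higher and 1 was lower in the female library.

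Ontology terms named an organelle that worms do not have. Of 5 members with a Gene Ontology cellular component, 4 were assigned to the apicoplast, the plastid of malaria parasites and their relatives, and these 4 (CL4221.Contig1, Unigene27528, CL2178.Contig1 and Unigene24405) were the only rows of the authors' deposited table with that term.

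For 2 members the names given by all databases pointed to a conserved enzyme and not to repetitive sequence. Unigene29264 (331 bases) was named glycine dehydrogenase, an enzyme of the glycine cleavage system, in Nr, Swiss-Prot, COG and KEGG alike, with an Nr E-value of 1e-30. It had 0 female fragments against 17 male fragments (2.80 FPKM), at least 6.11-fold lower in the female library. CL757.Contig5 was a DEAD-box helicase in Nr, translation initiation factor 4A, an RNA helicase of this type, in Swiss-Prot and KEGG, and a helicase in COG, with an Nr E-value of 1e-33. A high score in Nr or Swiss-Prot alone was also seen elsewhere: Unigene16631 scored 144 bits against Mediator subunit 12 in Swiss-Prot but 71.2 bits in Nr. KEGG also named Mediator subunit 12 for Unigene16631, while its COG was a membrane protein for colicin uptake. CL4255.Contig1 scored 110.5 bits in Nr, against an unnamed protein, and 84.7 bits in Swiss-Prot. Unigene29264 and CL757.Contig5 were under 5 FPKM in both libraries, so neither could pass the size rule. Leaving them out, an alternative chosen after seeing the data, could not change its count of 25 members lower in the female library.

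By the words of the Nr description, the 29 members called hypothetical held 1760 female against 598320 male fragments. Of them 1 was higher and 28 were lower in the female library, 16 of them past the size rule. The 5 named for RNA binding held 1 female against 151120 male fragments, and all 5 passed the size rule as lower in the female. The 5 with other names held 1226 female against 24804 male fragments; CL72.Contig2 held all 1226. The only member named for transcription that passed it was the myb domain match CL3807.Contig1, with 0 female fragments against 763 male fragments (39.0 FPKM), at least 274-fold lower in the female library. No member fell in the word groups for kinases, the cytoskeleton or surface proteins in Nr, although the Swiss-Prot names of the same members included kinases.

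The libraries also differed in transcripts typical of each sex. The 62 rows of the authors' deposited table with major sperm protein in the Nr description summed to 32.1 FPKM in the female and 42579 FPKM in the male library, with 61 of 62 lower in the female. The 3 vitellogenin rows, for the yolk precursor made by egg-laying animals, summed to 15057 FPKM in the female and 143 FPKM in the male library, with 2 higher and 1 lower in the female. The row that was lower had 0 FPKM in the female and 68.9 FPKM in the male library. With 1 library per sex, the 38 members lower in the female library stand in the same direction as the major sperm protein rows, and CL72.Contig2, Unigene16631 and CL757.Contig5 in the opposite one. The part of male germline cells in the result was not tested.

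Further rows carried a Dictyostelium name only in Swiss-Prot. There were 251 rows in the authors' deposited table with a Swiss-Prot match to Dictyostelium under another first Nr hit or none. Of these 65 were higher and 186 lower in the female library (74.1% lower), against 92.7% for the members, 69.2% for the 13 protist rows, 48.8% for the nematode rows and 55.7% for all rows of the authors' deposited table; these shares were not tested against each other. Of 10 rows with a best Nr hit in the amoeba genus Polysphondylium, 9 were lower in the female library. Those 10 held 0.0758% of the female and 0.0700% of the male fragments. Nearly all of that female share came from Unigene15863, the row that was higher in the female library. It had 14909 fragments (512 FPKM) in the female against 198 fragments (7.32 FPKM) in the male library. The 10 rows summed to 513 FPKM in the female and 538 FPKM in the male library. The 251 rows held 0.705% of the female and 5.09% of the male fragments. CL2178.Contig4, described above, is one of them, and without it they held 0.705% of the female and 2.15% of the male fragments. They included Unigene30667 at 0.349 FPKM in the female against 9136 FPKM in the male library, and Unigene39705, a histidine-rich match, at 5825 FPKM in the female against 0 fragments in the male library.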

How the data were processed

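Polyadenylated RNA of 1 female and 1 male worm was fragmented, copied from random primers and sequenced, per the labels' protocols. For each library the authors deposited unigene lengths, fragment counts that were not normalized, and FPKM, per the file headers. FPKM equal the count divided by length and library total (largest difference 5.0e-05). The authors' deposited table adds the log2 ratio of female over male FPKM, with 0 FPKM replaced by 0.001 as its values show, a p-value and an FDR per unigene, and the score and E-value of the best hits; assembler, aligner, counter and test: not given in the sources used here. Those p-values were used only as the authors' entry criterion. A unigene missing from a library's table was taken as 0 fragments.

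Members, name groups and comparison rows were chosen with earlier results of these data known. Genes to name were the 8 most abundant members, the 4 outermost per direction past the size rule, the longest and shortest, the most abundant per name group, the 3 most abundant with a Swiss-Prot hit outside Dictyostelium, the members of clusters with at least 3 members and the 5 most abundant with a COG. Other unigenes were named after their values were seen. Folds are ratios of library shares with exact 95% binomial intervals, and 0 fragments were set to 3 per library. A count of 3 fragments on 1 kilobase equals 0.152 FPKM in the female and 0.163 FPKM in the male library. Names shared a word when a word of at least 3 letters, outside a list of general words, stood in both. Tables and plots were made with pandas 2.3.3, SciPy 1.17.1, matplotlib 3.10.9 and NumPy 2.4.6 under Python 3.11.15, and TMM factors alone with edgeR 4.0.16 in R 4.3.3. Alternatives varied the pseudocount, filter, size, scaling and member rule. Calculations were tested on simulated counts.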

Additional observations from a re-analysis of the deposited data

How the results depend on the processing

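The direction of the median log2 ratio, of the summed level and of 24 single members (the named ones and the 3 higher in the female library) was kept under every alternative run for them. For single members the alternatives changed only the pseudocount, the floor or the scaling. A pseudocount cannot reverse a direction, and the scalings shift log2 ratios taken without a pseudocount by only -0.41 and 0.08. Their kept directions were thus nearly given in advance. The median of -6.96 was -9.95 with a pseudocount of 0.1 FPKM and -9.47 with none and 0 set to 3 fragments. It was -4.78 with no filter on low values, -5.89 with 1 unigene per cluster and -8.00 at a mean of at least 10 FPKM. The summed level, a log2 ratio of -10.08, was -9.93 with 1 unigene per cluster and -10.26 with members whose Swiss-Prot hit is also Dictyostelium. It was -10.50 with TMM scaling and -9.57 without the most abundant member. With totals that leave out the 20 most abundant unigenes of each library it was -10.00. TMM shifted log2 ratios taken without a pseudocount, such as the summed level, by -0.41. With the pseudocount of 1 FPKM the TMM shift was smaller: the median was -7.17 instead of -6.96. With that pseudocount and totals without the 20 most abundant unigenes, the median was -7.19. That move was opposite in sign to the shift of 0.08. At a 2-fold size 1 member was higher in the female library, instead of 0. With a Dictyostelium hit in Nr or Swiss-Prot, an alternative chosen after seeing the data that takes in 292 rows, the median was -2.14, the summed level -4.29, and the size rule gave 7 higher and 101 lower in the female library. No paired analysis was possible because each sex has 1 library. Depth limits the folds of members at 0 to 5 female fragments.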
